A study of Mus musculus with 46 samples.

Results

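A mouse thyroid tumour line carrying an empty expression vector was compared with 4 untransduced lines of the same genotype by RNA sequencing. The comparison covered the 13528 genes whose identifier stands in both deposited tables, of 14888 genes in either, and 7 of the 46 samples of the series: 3 empty vector libraries and 4 lines. All 7 libraries are Rb/p53/Max mutant (RPM). The lines were grown from thyroid tumours of mice with conditional Rb, p53 and Max mutations, induced in neuroendocrine cells through Cre and tamoxifen. Lines and transduced cells were kept in DMEM with 10% serum. By the library names, all 3 empty vector libraries come from line H7536, which is RPM replicate 2 and is called the parent line here, so 1 line was transduced. The same line transduced with a Max-expressing vector (Max addback, 3 libraries) is given beside the comparison and enters no test. Neither side of the comparison received Max, and the question is how far the transduced culture departs from the untransduced lines.

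The sources used here do not give the vector, its selection, the passage number or whether the 3 libraries were separate transductions. Either way 1 line was transduced, so p-values measure only the spread between these samples and none between transduced lines. The empty vector and addback libraries stand in 1 table and the lines in the other, and no untransduced library stands in the addback table. The vector, the time in culture and any difference between the 2 experiments therefore cannot be told apart. RPM replicate 1 shares its animal identifier with a tumour library that is labelled Rb/p53 mutant. The counts over all genes, and those of the lists that moved most, are therefore also given without RPM replicate 1. Each line had 7829982 to 8408913 reads in listed genes and each empty vector library 6738614 to 7238672, and the shared genes held 99.7 to 99.96% of them in these 7 libraries. Levels are counts per 1e6 reads (CPM), rescaled over the shared genes. At these depths 3 reads are 0.357 to 0.458 CPM, and intervals and floors cover counting error only.

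MAX is the obligate partner through which MYC proteins activate and MXD, MNT and MGA proteins repress genes at E-box sequences. Thyroid C cells are neuroendocrine: they make calcitonin from Calca, cut it from its precursor with prohormone convertases, and store it with granins in dense-core granules. INSM1 and the FOXA factors are among the transcription factors of such cells, and RET is the receptor whose activation drives medullary thyroid carcinoma.

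The engineered genes were examined first. Max was read at 81.5, 102, 69.4 and 101 CPM in RPM replicates 1 to 4 and at 86.3, 82.7 and 96.1 CPM with empty vector. The groups overlapped (log2 difference 0.01, exact two-sided permutation p = 0.886 over 35 splits, of which the smallest possible p is 0.0286), whereas addback libraries averaged 239 ± 15.6 CPM (mean ± SD, n = 3, as in all values so written). Rb1 stood at 224, 139, 144 and 173 CPM and at 219, 207 and 208 CPM (log2 difference 0.34, exact permutation p = 0.2). In the limma fit Rb1 did not pass with all lines but was called higher without RPM replicate 1 (log2 difference 0.48, adjusted p = 0.019). Without RPM replicates 1 and 2 it was called higher too (0.42, limma adjusted p = 0.0125). Trp53 stood at 15.9, 9.67, 17.6 and 11.7 CPM and at 12.7, 12.4 and 12.5 CPM (log2 difference -0.09, exact permutation p = 0.8). Gene-level counts cannot show a deleted exon, and no genotype was checked by them. The Y-linked genes Ddx3y, Eif2s3y, Uty and Kdm5d were read in the parent line at 124, 59.3, 43.02 and 47.2 CPM and in the empty vector libraries at means of 166, 119, 64.3 and 65.8 CPM. In the addback libraries the same genes were at or near 0, with the highest mean at 0.08598 CPM. RPM replicate 3 had no read of the 4 genes and 1972 CPM of Xist, and RPM replicates 1 and 4 had reads of all 4.

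The empty vector libraries lay close to each other and far from the lines. As Euclidean distances in log2(CPM + 1), the 3 libraries were 24.97 to 26.1 apart, 92.9 to 93.4 from the parent line and 138.7 to 153.3 from the other 3 lines. The 4 lines were 75.6 to 121.5 apart. Addback libraries lay 62.8 to 67.7 from the parent line and 108.5 to 111.2 from the empty vector libraries. The culture with the empty vector was thus farther from its untransduced parent than the culture with Max was. Beyond sampling noise, which would give a chi-square near its degrees of freedom, the 3 libraries differed by a ratio of 1.77 to 1.91 and from the parent line by one of 35.4 to 37.4.

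**Figure D1:**
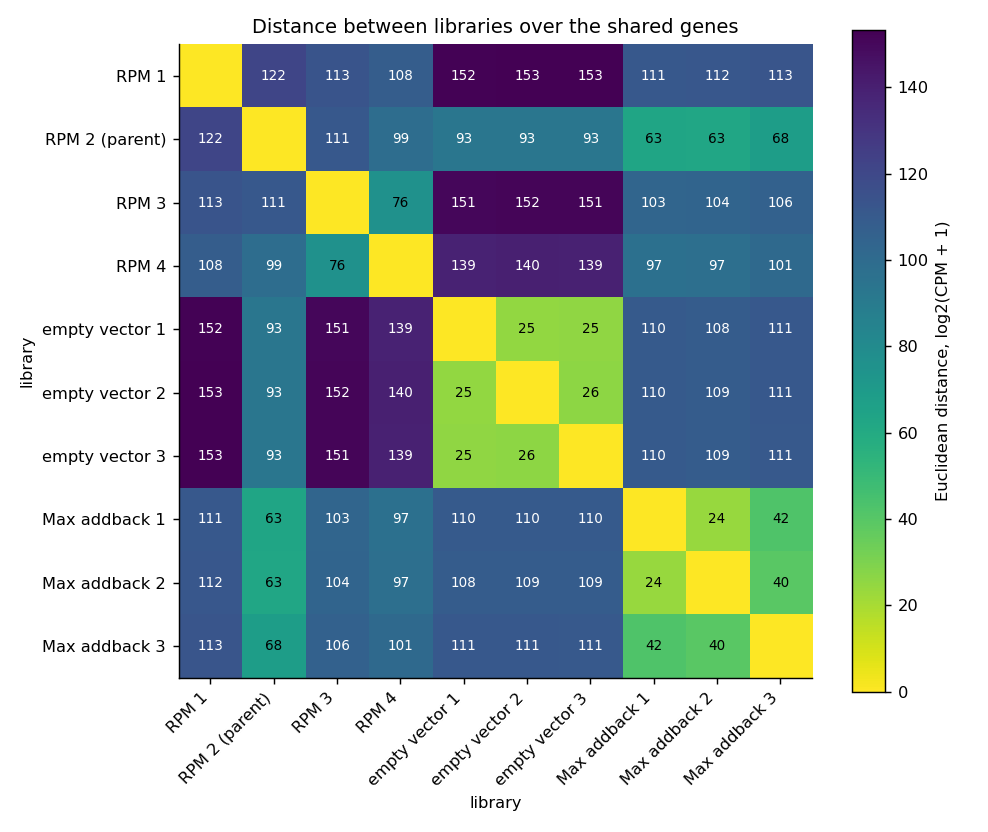
Heat map of the Euclidean distance between libraries in log2(CPM + 1) over the shared genes; rows and columns are the 4 RPM lines, the 3 empty vector and the 3 Max addback libraries. Empty vector libraries are 24.97 to 26.1 apart and 92.9 or more from every line, and addback libraries are 62.8 to 67.7 from the parent line.

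Of the 13528 genes, 3365 (24.9%) were called at an adjusted p under 0.05 by limma-trend with Benjamini-Hochberg adjustment, 1495 higher (11.1%) and 1870 lower (13.8%) with empty vector. At 2-fold or more there were 561 higher (4.15%) and 1058 lower (7.82%), at an unadjusted p under 0.05 there were 5448 genes (40.3%), and the median log2 difference of all genes was -0.0016. Without RPM replicate 1 the counts were 1803 and 2162, and without RPM replicates 3 and 4 in turn 1150 and 1491, and 977 and 1289. Without the parent line they were 2252 and 2529, and without RPM replicates 1 and 2 together, an alternative chosen after the data had been seen, 3340 and 3559. Without any 1 empty vector library they were 267 to 276 higher and 513 to 528 lower. Taking the 3 libraries as 1 culture (their mean as 1 sample against the 4 lines, assumed to vary like the lines), 0 genes were called higher and 8 lower (0.0591%), with 1575 (11.6%) at an unadjusted p under 0.05; the other tools were not run on that design. Most of the calls thus rest on the 3 libraries being counted as separate samples.

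The parent line was the line nearest to the empty vector mean at 5827 of all genes (43.1%) and at 1938 of the called genes (57.6%). Set beside the parent alone, with no test since it is 1 library, 512 genes (3.78%) stood at least 2-fold above it and 1075 (7.95%) at least 2-fold below it as the mean log2(CPM + 1) of the 3 libraries, and 10061 (74.4%) lay within 1.5-fold. Of the called genes, 318 higher (2.35% of all genes) and 751 lower (5.55%), together 7.9%, were also 2-fold from the parent in the same direction. A further 1386 called genes (10.2%) lay within 1.5-fold of it.

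**Figure D2:**
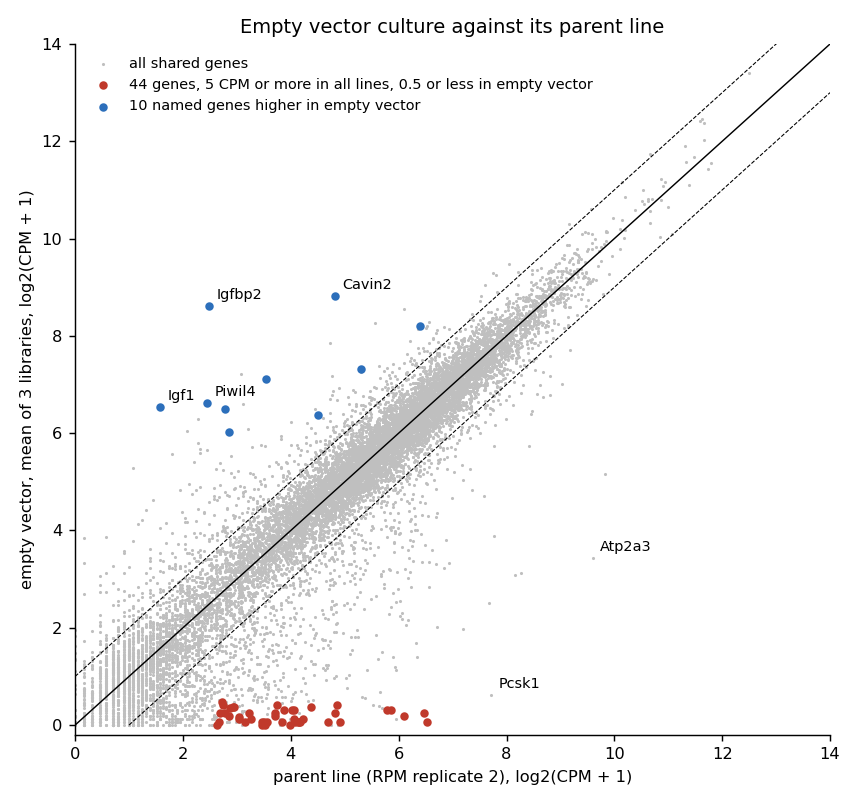
Mean log2(CPM + 1) of the 3 empty vector libraries against the parent line, 1 point per shared gene; the solid line is equality and the dashed lines are 2-fold. Red points mark 44 genes at 5 CPM or more in all 4 lines and at 0.5 CPM or less in every empty vector library, and blue points the 10 named genes with the largest rise.

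The 8 genes that passed with the 3 libraries taken as 1 culture were Dapk1, Nebl, Galk1, Nid1, Epn1, Frk, Nrsn1 and Samd5. Dapk1 encodes death-associated protein kinase, a calmodulin-regulated kinase of cell death and autophagy (chromosome 13, 60601947 to 60763191, mm10, plus strand). It was read at 115, 67.8, 83.3 and 111 CPM in RPM replicates 1 to 4 and at 0.286, 0.141 and 0 CPM with empty vector, 3 reads in all (log2 difference -6.36, SE 0.24, limma adjusted p = 7.03e-05; 0.0396 as 1 culture). Bulk levels cannot tell fewer cells with a transcript from less of it per cell. Pooled reads gave a ratio of lines to empty vector of 646 (exact 95% interval 221 to 3133, counting error only). The addback libraries, at 83.7 ± 12.2 CPM, lay inside the range of the lines. Galk1, the galactokinase of the Leloir pathway (chromosome 11, 116008457 to 116012719, minus strand), stood at 84.4, 50.8, 87.96 and 86.5 CPM and at 0.143, 0.141 and 0.611 CPM (log2 difference -5.90, SE 0.26, adjusted p = 8.96e-05), and at 45.3 ± 9.91 CPM with addback. Nid1, the basement membrane glycoprotein nidogen 1, was read at 132, 90.9, 95.3 and 207 CPM in the lines and by 1 read in the 3 empty vector libraries (log2 difference -6.90, SE 0.30, adjusted p = 8.96e-05). The pooled ratio was 2695 (exact 95% interval 484 to 106489), and addback libraries, at 27.8 ± 3.68 CPM, were also below every line. In none of the 8 genes did the groups overlap, which also held at 3361 of the 3365 called genes (99.88%) and 5887 of all 13528 (43.5%). Among called genes, here and below, groups that do not overlap therefore add little to the call.

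Samd5 stood at 56.9, 57.1, 58.5 and 108 CPM in the lines and at 0.286, 0.283 and 0.153 CPM with empty vector. Nrsn1, a neuronal vesicular membrane protein, went from 82.5, 50.8, 67.9 and 56.7 CPM to 2.86, 1.84 and 1.07 CPM. The other 3 kept more reads. Nebl, which encodes the actin-binding protein nebulette, was at 117, 113, 128 and 117 CPM in the lines and 8.71, 7.495 and 8.86 CPM with empty vector. Epn1, an endocytic adaptor, was at 149, 117, 148 and 124 CPM and 12.6, 12.4 and 13.9 CPM. Frk, a SRC-related kinase, was at 58.2, 55.4, 49.5 and 59.2 CPM and 3.71, 3.82 and 4.12 CPM, so all 3 libraries stood below every line. The log2 differences of these 5 against the lines were -5.79, -4.51, -3.68, -3.27 and -3.53, and the spread among the 4 lines was small against them. Their addback means were 81.9, 68.8, 92.8, 107 and 49.7 CPM, far above the empty vector levels.

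The promoters of Dapk1 and Galk1 are shown because both genes were read in all 4 lines and in addback and had 3 and 6 reads with empty vector. The windows run from 250 bases before to 50 after the RefSeq start (GRCm38.p6), 5′ to 3′ on the gene's strand. Capitals mark CpG dinucleotides, 38 in Dapk1 and 23 in Galk1, against a median of 7 over the 32851 windows of the table and of 21 over the 10438 shared genes that have a window. The median was 26.5 over the 8 genes above. It was 17 over the 36 with a window of the 44 genes near 0 with empty vector, described below, so the windows shown do not stand for those genes. Since 77.2% of the shared genes have a window, no test of CpG content was made. No methylation was measured in these samples.
Dapk1, chr13:60601961-60602260, plus strand: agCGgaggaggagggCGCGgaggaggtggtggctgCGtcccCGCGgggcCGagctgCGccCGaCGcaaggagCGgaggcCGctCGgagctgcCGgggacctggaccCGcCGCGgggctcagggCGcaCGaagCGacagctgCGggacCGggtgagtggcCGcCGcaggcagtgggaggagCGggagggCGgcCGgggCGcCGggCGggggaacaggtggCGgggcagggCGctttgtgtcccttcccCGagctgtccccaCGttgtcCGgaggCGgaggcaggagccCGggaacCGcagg
Galk1, chr11:116012670-116012969, minus strand: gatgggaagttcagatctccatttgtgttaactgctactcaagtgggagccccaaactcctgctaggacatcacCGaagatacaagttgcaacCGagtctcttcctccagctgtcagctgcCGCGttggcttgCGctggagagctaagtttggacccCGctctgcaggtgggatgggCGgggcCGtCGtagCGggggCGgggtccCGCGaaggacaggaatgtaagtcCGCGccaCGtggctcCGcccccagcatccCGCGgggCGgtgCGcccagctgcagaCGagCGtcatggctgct

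More widely, 44 genes, Nid1, Dapk1 and Samd5 among them, stood at 5 CPM or more in all 4 lines and at 0.5 CPM or less in all 3 empty vector libraries, a rule chosen after values had been seen. They lie on 17 chromosomes, with at most 5 on any and 1 pair of neighbours. No shared gene met the reverse rule, and none met the first rule with addback in place of empty vector. The reverse count is limited by the listing. A gene near 0 in every line may not be listed with the lines, and then it is not among the shared genes. The 528 genes listed with the transduced cultures alone, Fabp4 and Th among them, could not enter it. Applied to each line against the other 3, the first rule found 21, 15, 8 and 4 genes for RPM replicates 1 to 4. In 35 of the 44 all 3 addback libraries were at 5 CPM or more, and in none was any of them at 0.5 CPM or less. A gene near 0 with empty vector and addback alike may not be listed with these cultures. It would then be missing from the shared genes, so the addback levels of the 44 may be partly fixed by the listing. The parent had the lowest level of the 4 lines at 32 of the 44, where another line did at 8, 1 and 3.

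Among the 44 were Casp8 and 2 receptors of the TNF family, named after their values were seen. Casp8, the initiator caspase of death receptor signalling, was read at 52.6, 10.04, 12.6 and 19.6 CPM in the lines, had no read in the empty vector libraries, which allows up to 0.424 to 0.458 CPM, and averaged 29.4 ± 3.302 CPM with addback. Ltbr, the lymphotoxin beta receptor, stood at 31.4, 29.1, 47.2 and 51.6 CPM and at 0, 0 and 0.153 CPM. Tnfrsf1b, the TNF receptor 2, stood at 27.5, 8.31, 12.3 and 18.9 CPM and 0.143, 0 and 0.458 CPM. All 3 genes were read in every line and had at most 4 reads in all with empty vector. Cd55, an inhibitor of complement, stood at 23, 28.02, 37.2 and 21.9 CPM and 0.286, 0.283 and 0.458 CPM. Ccn3, a secreted matricellular protein, was the most abundant of the 44 in the lines and fell from 500.3, 87.3, 909.6 and 189.8 CPM to 0.428, 0 and 0.153 CPM, 4 reads in all (log2 difference -7.97, adjusted p = 0.00112). All 44 were called, but the rule fixes that direction.

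Ordered by the size of the log2 difference among called genes at least 2-fold from the parent, the 10 named genes lower with empty vector were Pcsk1, Ccn3, Zdbf2, Nid1, Dapk1, Atp2a3, Snhg11, Nnat, Atp8b1 and Galk1. Atp2a3, the SERCA3 calcium pump of the endoplasmic reticulum, was at 1786, 775, 693 and 542 CPM in the lines and at 9.71, 10.6 and 9.01 CPM with empty vector (log2 difference -6.30, SE 0.37, adjusted p = 0.000196). No library of either group came near the other group. Snhg11, a host transcript of small nucleolar RNAs, was at 258, 10.8, 115 and 115 CPM and 0.143, 0 and 0 CPM, 1 read in all (adjusted p = 0.00604; pooled ratio 2548, exact 95% interval 457 to 100657). Atp8b1, a phospholipid flippase, was at 179, 12.4, 167 and 159 CPM and 0.428, 0.283 and 0.305 CPM (adjusted p = 0.00572). In both, the parent line stood at least 8-fold below the other lines.

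The 10 named genes higher with empty vector were Igfbp2, Cavin2, Piwil4, Igf1, Nr2f1, Nkd2, Rbpms, Prokr1, Itpkb and Vim. Igfbp2, a secreted binder of insulin-like growth factors, was at 0.129, 4.59, 1.91 and 2.12 CPM in the lines and at 411, 379.5 and 386 CPM with empty vector (log2 difference 7.16, SE 0.48, limma adjusted p = 0.000324). Igf1, which encodes such a growth factor, went from 0.129, 1.98, 0.357 and 4.99 CPM to 89.99, 99.3 and 86.01 CPM (log2 difference 5.34, adjusted p = 0.0017). Both stood far above every line, and addback libraries averaged 5.61 and 0.797 CPM, inside the lines' spread or just above it. Cavin2, a coat protein of caveolae, was at 0.514, 27.4, 7.51 and 1.62 CPM and 442, 477 and 431 CPM, with the parent the highest line. Piwil4, a PIWI protein of the germline piRNA pathway, was at 0, 4.46, 0.596 and 0.499 CPM and 94.8, 94.5 and 101 CPM (log2 difference 5.68). The addback mean fell inside the range of the lines at 7 of the 10 named genes that rose and at 7 of the 10 that fell.

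Nr2f1, an orphan nuclear receptor of neural development, was at 0, 6.199, 1.31 and 0.873 CPM in the lines and 62.9, 67.03 and 61.9 CPM with empty vector. Rbpms, an RNA-binding protein, was at 0.8996, 5.83, 2.98 and 4.36 CPM in the lines and 91.99, 87.8 and 89.2 CPM with empty vector. Nkd2, an inhibitor of Wnt signalling, was at 1.799, 10.7, 1.79 and 7.23 CPM and 150.0, 145 and 117 CPM. In these 3 the parent was the highest line and held at most 10.7 CPM. Prokr1, a prokineticin receptor, was at 4.37, 83.7, 5.12 and 13.1 CPM in the lines and 301, 289 and 296 CPM with empty vector. Itpkb, an inositol trisphosphate kinase, was at 2.57, 21.7, 1.19 and 0.623 CPM and 87.7, 75.8 and 84.2 CPM. The parent was the highest line here too. Vim, the intermediate filament of mesenchymal cells, was at 18.2, 38.7, 0.954 and 1.75 CPM and 131, 157 and 196 CPM, and at 2.39 ± 0.167 CPM with addback.

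**Figure D3:**
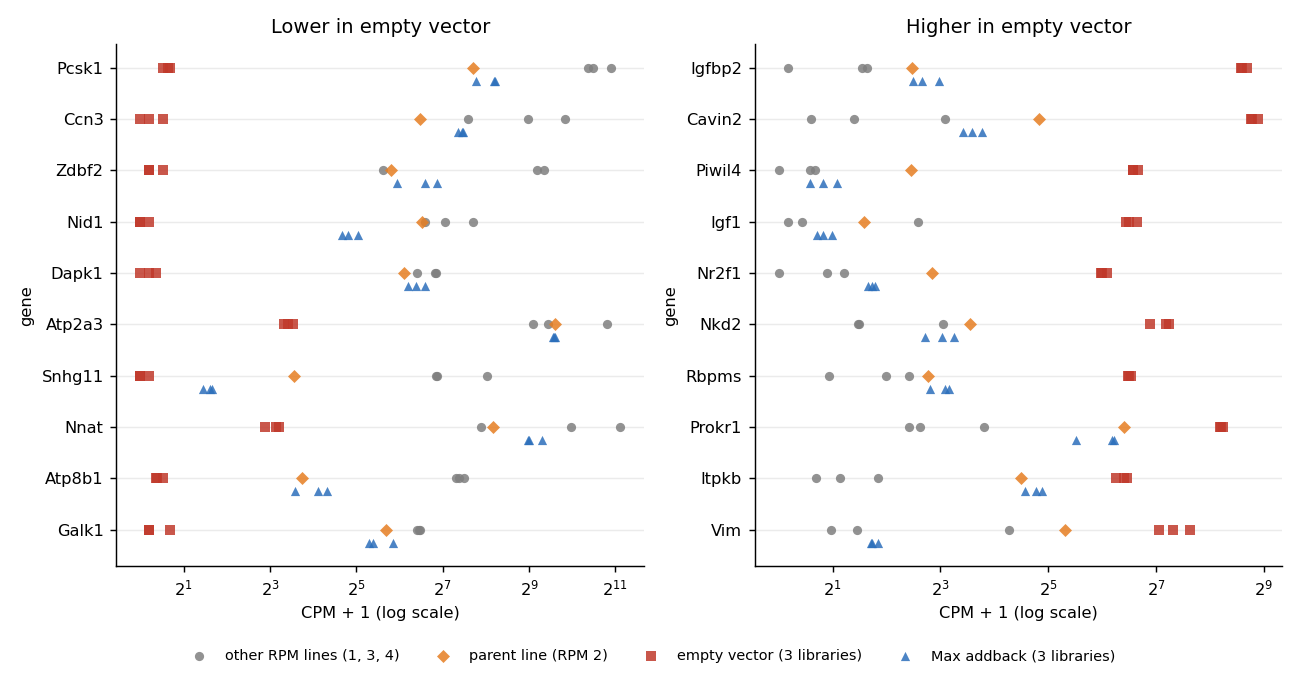
CPM + 1 on a log axis for the 20 named genes, 1 point per library: 3 other RPM lines (grey), the parent (orange), 3 empty vector (red) and 3 Max addback libraries (blue, drawn lower in each row). Empty vector points stand apart from all lines in every row, and addback points lie nearer to the lines than to empty vector in every row but Snhg11, where they are at 1.72 to 2.15 CPM.

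Of 23 listed genes of the C cell and neuroendocrine programme, all measured, 14 fell and 1 rose, against 13.8% and 11.1% of all genes, with a median log2 difference of -1.03 (all genes -0.0016). Beside the parent the median was -1.03 too, and 12 members were at least 2-fold lower. Without RPM replicate 1, 15 fell and 1 rose; without any 1 empty vector library 5 fell, and as 1 culture 0 did. With addback, 13 of the 14 that fell averaged inside the range of the lines.

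Processing enzymes and granule proteins were among the members that fell. Pcsk1 encodes prohormone convertase 1/3 (chromosome 13, 75089826 to 75134861, plus strand). It was read at 1439, 209, 1323 and 1923 CPM in RPM replicates 1 to 4 and at 0.428, 0.566 and 0.611 CPM with empty vector (log2 difference -9.26, SE 0.71, adjusted p = 0.000595; 0.106 as 1 culture). The parent was the lowest line, and the pooled ratio of lines to empty vector was 2290 (exact 95% interval 1279 to 4587). Pcsk2, convertase 2, fell from 418, 446, 1610 and 991 CPM to 151, 137 and 145 CPM (log2 difference -2.35). Scg5, the chaperone 7B2 of that convertase, fell from 33.5, 71.3, 356 and 123 CPM to 10.1, 12.9 and 10.7 CPM (log2 difference -3.08). Every line stood above every empty vector library for both. Among granins, Scg3 fell from 283, 391, 939 and 584 CPM to 127, 129 and 124 CPM. Chga fell from 426, 566, 836 and 612 CPM to 304, 280.1 and 285 CPM. Chgb, at 141, 523, 683 and 571 CPM in the lines and 137, 127 and 121 CPM with empty vector, passed narrowly (adjusted p = 0.0498). RPM replicate 1 held nearly as little Chgb as the empty vector libraries, and Chgb did not pass without RPM replicate 2, 3 or 4, nor Scg5 without RPM replicate 4. Ddc, the decarboxylase of amine hormones, fell from 672, 577, 907 and 585 CPM to 215, 221 and 193 CPM (log2 difference -1.68, adjusted p = 0.0015).

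Transcription factors of the lineage fell as well. Insm1 stood at 490.3, 309, 1165 and 585 CPM in the lines and at 122, 112 and 105 CPM with empty vector. Foxa2 stood at 204, 169, 259.8 and 257 CPM and 82.4, 78.2 and 78.98 CPM, and Foxa1 at 352, 232, 186 and 201 CPM and 109.8, 113 and 112 CPM. In all 3 every line stood above every empty vector library. Their log2 differences were -2.32, -1.45 and -1.07 (limma adjusted p = 0.00859, 0.0021 and 0.0132). Ret fell from 570.5, 172, 583 and 469 CPM to 84.6, 81.2 and 85.8 CPM (log2 difference -2.26). Gfra1, which encodes a ligand-binding co-receptor of RET, rose from 0.386, 4.21, 1.07 and 0.873 CPM to 15, 12.6 and 14.7 CPM (log2 difference 2.71). The neuronal membrane protein genes Rtn1 and Syp also fell, by 1.97 and 0.90 on the log2 scale. The hormone genes did not pass: Calca was at 838, 3409, 12650 and 5338 CPM in the lines and 2692, 2918 and 2740 CPM with empty vector. Sst, encoding somatostatin, was at 766, 3523, 6262 and 2796 CPM and 2984, 2906 and 3171 CPM. In both genes the lines spread over a wider range than the distance between the groups. Nkx2-1, the homeobox factor of the thyroid, was at 494, 638, 346 and 452 CPM and 465, 465 and 458 CPM and overlapped as well. Reads of Calca, the gene from which C cells make calcitonin, were thus present in every library.

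Of 20 measured genes of synaptic vesicles and exocytosis, 7 fell and 1 rose, against 13.8% and 11.1% of all genes (median log2 difference -0.74). Rab3b, a vesicle GTPase, fell from 52.8, 38.1, 38.3 and 28.3 CPM to 7.57, 5.37 and 8.25 CPM (log2 difference -2.31, adjusted p = 0.00174), while addback libraries averaged 91.7 CPM, above every line. Snap25, a membrane fusion protein, fell from 336, 159.9, 209.8 and 190.4 CPM to 63.6, 56.1 and 55.9 CPM. Unc13a, a factor that primes vesicles, fell from 239, 238, 343 and 319.7 CPM to 141, 126 and 134 CPM. Dnm1, the neuronal dynamin, fell from 72.2, 83.4, 96.8 and 77.4 CPM to 33.3, 34.8 and 42.8 CPM. In all 4 the groups were apart. Without any 1 empty vector library 4 or 5 members fell, and as 1 culture 0 did. Syt7, a calcium sensor of granule release, was at 839, 171, 864 and 711 CPM, with the parent far below the other lines, and at 72.7, 65.8 and 69.97 CPM with empty vector (log2 difference -2.96).

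**Figure D4:**
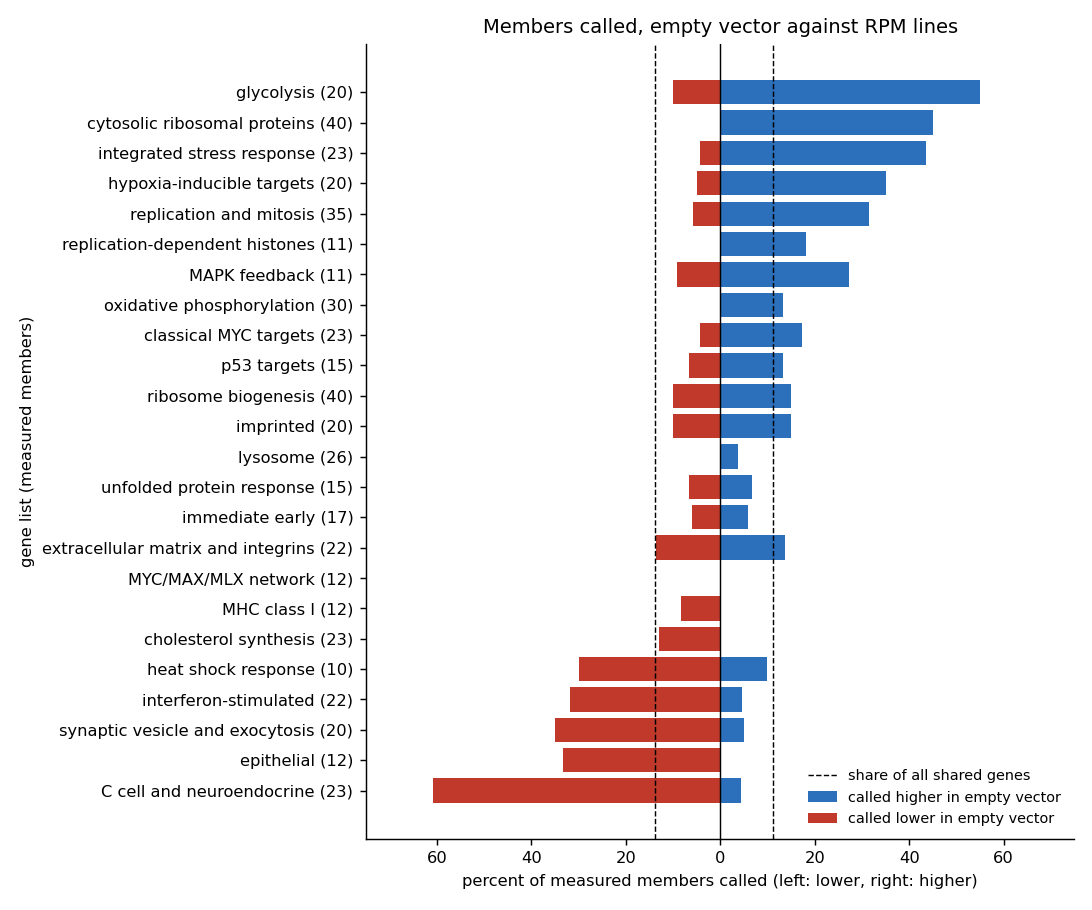
Share of measured members of each gene list called higher (right, blue) or lower (left, red) in empty vector libraries against RPM lines, for lists with 10 or more measured members; dashed lines are the shares of all shared genes, 11.1% and 13.8%. C cell and neuroendocrine genes reach farthest to the left, and glycolysis, ribosomal protein and integrated stress response genes farthest to the right.

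Of 12 epithelial genes, all measured, 4 fell and 0 rose, against 13.8% and 11.1% of all genes. The median log2 difference was -2.97, and -1.08 from the parent. Cldn3, a tight junction claudin, fell from 130.3, 66.1, 92.6 and 67.1 CPM to 4.71, 5.09 and 2.44 CPM (log2 difference -4.13, SE 0.31, adjusted p = 0.000546). Here the parent was close to the other lines. The keratin Krt7 fell from 1784, 96.95, 421 and 353 CPM to 13.4, 8.48 and 12.1 CPM, and the keratin Krt18 from 826, 24.3, 255 and 146 CPM to 7.29, 7.07 and 6.11 CPM. Cdh1, which encodes E-cadherin, fell from 852, 35.1, 349 and 199 CPM to 16.9, 12.6 and 14.4 CPM. In these 3 the parent was the lowest of the lines, and it was so at 9 of the 12 genes. Without the parent 8 members fell and without RPM replicate 3 or any 1 empty vector library 2 did. Krt18 did not pass without RPM replicate 3, nor Cdh1 without RPM replicate 3 or 4. The addback means of Krt7, Krt18 and Cdh1 were 317, 109 and 182 CPM, above the parent. Epcam, a surface marker of epithelia, did not pass, at 637, 21.6, 285 and 189.5 CPM in the lines and 17.4, 19.7 and 18.3 CPM with empty vector. Of 6 measured mesenchymal genes Vim rose and the other 5 did not pass, nor did Vim without RPM replicate 4. Zeb1, a repressor of E-cadherin, stood at 6.81, 98.3, 55.5 and 66.8 CPM in the lines and 100.3, 99.3 and 94.9 CPM with empty vector, and Cdh2, which encodes N-cadherin, at 6.81, 43.5, 65.4 and 95.3 CPM and 94.1, 84.6 and 88.5 CPM.

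Of 22 matrix and integrin genes 3 rose and 3 fell, shares near the 11.1% and 13.8% of all genes. Without the parent 7 rose and 4 fell, and without any 1 empty vector library 3 rose and 1 fell. Fn1, which encodes fibronectin, rose from 7.33, 1.12, 2.15 and 0.623 CPM to 37.7, 37.6 and 39.3 CPM (log2 difference 3.67, adjusted p = 0.00515). The laminin chain gene Lamb1 rose from 2.57, 1.24, 2.86 and 1.62 CPM to 17.9, 14.4 and 17.7 CPM, and Lamc1, for another chain, from 62.5, 98.3, 70.4 and 70.95 CPM to 247, 231 and 249.8 CPM. Nid1, whose protein binds laminin, fell as described. Mmp14, a membrane-bound metalloproteinase, fell from 11.1, 12.4, 104 and 49.2 CPM to 0.714, 1.27 and 2.29 CPM. Itga3, a subunit of an integrin that binds laminin, fell from 192, 103, 108 and 102 CPM to 69.1, 70.8 and 69.97 CPM. Itga3 did not pass without RPM replicate 3 or 4. Fn1 and Lamb1 were at 0.297 and 1.596 CPM with addback, within the levels of the lines or below them.

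Of 23 genes of the integrated stress response, in which ATF4 induces amino acid synthesis and transport, 10 rose and 1 fell, against 11.1% and 13.8% of all genes, with a median log2 difference of 0.67 and of 1.11 from the parent. All 3 serine synthesis enzymes rose. Psat1 stood at 94.5, 216, 103 and 115 CPM in the lines and at 639.9, 599 and 631 CPM with empty vector (log2 difference 2.31, SE 0.27, limma adjusted p = 0.0025). Phgdh, the first enzyme of the pathway, stood at 7.197, 8.802, 2.62 and 1.62 CPM and 23.3, 26.3 and 23.1 CPM (log2 difference 2.26). Psph, the last, stood at 26.4, 31.1, 21.1 and 11.8 CPM and 79.3, 71.5 and 73.9 CPM (log2 difference 1.76). In none of the 3 did the groups overlap. Of the mitochondrial folate enzymes, Aldh1l2 rose from 44.7, 57.6, 72.9 and 43.5 CPM to 155, 142 and 159 CPM and Shmt2 from 176, 144, 138 and 114 CPM to 244, 224 and 244 CPM.

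Further members that rose were Asns, Chac1, Ddit3, Sesn2 and Eif4ebp1. Asns, asparagine synthetase, stood at 152, 72.8, 101 and 89.03 CPM in the lines and 258, 224 and 229 CPM with empty vector (log2 difference 1.23, adjusted p = 0.0117). Chac1, which degrades glutathione, stood at 18.1, 3.97, 13.1 and 5.11 CPM and 32.7, 26.2 and 27.8 CPM (log2 difference 1.65, adjusted p = 0.0435). Ddit3, encoding the factor CHOP, stood at 11.6, 9.05, 26.6 and 9.23 CPM and 33.3, 28.9 and 37.7 CPM, and the highest line came close to the lowest empty vector library. Sesn2 and Eif4ebp1, which restrain mTORC1 signalling and cap-dependent translation, rose by log2 differences of 1.05 and 1.74. Vldlr, a lipoprotein receptor, fell from 30.8, 40.5, 71.6 and 51.6 CPM to 10.6, 7.07 and 7.18 CPM. Atf4 itself overlapped, at 275, 153, 291 and 174 CPM and 230.5, 213 and 217 CPM. The parent was the lowest line at 11 of the 23 genes. With addback 5 of the 10 that rose averaged inside the range of the lines. As 1 culture no member of the list passed, and without any 1 empty vector library 5 rose. Chac1 did not pass without RPM replicate 3 or 4, nor Ddit3 without RPM replicate 1, 2 or 4. Of the 15 genes of the unfolded protein response, 1 rose and 1 fell, beside 11.1% and 13.8% of all genes.

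The promoters of Asns and Chac1 are shown because both genes rose and both hold the 8-letter element TGATGNAA, the composite C/EBP-ATF site, searched on both strands. Of the 23 listed genes 19 have a window and 7 of these hold the element (36.8%). The list was chosen for this pathway, so that share is no result of these data. With 1 window per gene, the element stands in 226 of 10438 shared genes (2.17%) and 19 of 1160 called higher (1.64%). Over all 32851 windows it stands in 1304 (3.97%). Among the 10 genes that rose, 8 have a window and 2 hold it; the other 5 matches are in Atf3, Nupr1, Pck2, Slc7a11 and Trib3, none of which passed. A match describes letters in the window and shows no binding. In Asns the element begins 23 bases before the start, and in Chac1 it lies on the opposite strand, so the capitals show its reverse complement.
Asns, chr6:7693160-7693459, minus strand: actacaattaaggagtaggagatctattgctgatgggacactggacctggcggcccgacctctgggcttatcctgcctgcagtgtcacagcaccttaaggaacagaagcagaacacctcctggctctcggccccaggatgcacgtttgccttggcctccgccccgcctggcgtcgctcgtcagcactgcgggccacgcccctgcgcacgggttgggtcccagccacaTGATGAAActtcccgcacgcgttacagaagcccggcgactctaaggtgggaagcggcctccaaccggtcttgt
Chac1, chr2:119350992-119351291, plus strand: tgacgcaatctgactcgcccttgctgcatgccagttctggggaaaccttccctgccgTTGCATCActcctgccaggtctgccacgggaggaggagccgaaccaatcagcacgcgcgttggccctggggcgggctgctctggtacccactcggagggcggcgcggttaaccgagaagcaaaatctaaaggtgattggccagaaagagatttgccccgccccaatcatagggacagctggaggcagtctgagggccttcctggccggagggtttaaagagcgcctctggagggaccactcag

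Glycolytic genes were higher in 11 of 20 measured entries and lower in 2, against 11.1% and 13.8% of all genes. The median log2 difference was 0.70. Aldoa stands under 2 identifiers and both rose. Pgk1, phosphoglycerate kinase, rose from 83.5, 91.2, 60.2 and 50.9 CPM to 202, 195 and 221 CPM (log2 difference 1.55, adjusted p = 0.00394). Gpi1, glucose phosphate isomerase, rose from 489, 701, 574 and 422 CPM to 1110, 1019 and 1228 CPM (log2 difference 1.05, adjusted p = 0.00918). At 8 of the 11 the parent was the highest line. Against these, Aldoc, the brain isoform of aldolase, fell from 63.4, 30.2, 113 and 130.3 CPM to 3.0, 2.54 and 2.597 CPM (log2 difference -4.32). Slc16a3, a lactate exporter, fell from 184, 354, 263 and 174 CPM to 87.1, 87.4 and 86.2 CPM. Without RPM replicate 4, 6 entries rose, and without any 1 empty vector library 1 to 3 did. Of 20 hypoxia-inducible targets 7 rose and 1 fell, against the same shares of all genes. Without the parent 11 rose, and without RPM replicate 3 or any 1 empty vector library 4 did. Ankrd37 rose from 19.3, 16.4, 22.3 and 28.3 CPM to 52.99, 50.1 and 57.4 CPM. P4ha2, a collagen prolyl hydroxylase, rose from 76.3, 114, 125 and 89.5 CPM to 225, 193 and 251 CPM. Adm, encoding adrenomedullin, rose from 2.19, 1.49, 0.596 and 1.12 CPM to 8.29, 5.66 and 9.93 CPM. Pfkfb4 fell by 1.47 on the log2 scale.

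Of 40 cytosolic ribosomal protein genes 18 rose and 0 fell, against 11.1% and 13.8% of all genes. The median log2 difference was 0.47, and 0.29 from the parent. Rpl22 was at 227, 224, 195 and 193 CPM in the lines and 462, 497 and 483 CPM with empty vector (log2 difference 1.20, SE 0.10, adjusted p = 0.00072). Rpl10, Rps20 and Rps4x rose by log2 differences of 1.30, 0.97 and 0.93. These genes have many near-identical processed copies in the genome, which could split their reads, so single values are uncertain. Rpl22 and Rps20 lie on chromosome 4 and Rpl10 and Rps4x on chromosome X, whose genes were higher than in the parent by a median of 0.264 and 0.457 on the log2 scale. Of the 18, 5 lie on these chromosomes, where 7 of the 40 listed genes are. With addback 10 of the 18 averaged inside the range of the lines, and the parent was the highest line at 13. Without any 1 empty vector library 8 to 10 rose.

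Of 35 genes of replication and mitosis 11 rose and 2 fell, against 11.1% and 13.8% of all genes. Kif11, a mitotic kinesin, rose from 358, 400.1, 285 and 253 CPM to 654, 699 and 663 CPM, and Ccna2 and Birc5 rose by log2 differences of 0.66 and 0.90, whereas Cdt1, a licensing factor, fell by 0.49. These counts moved with single libraries. Without RPM replicate 3, 1 member of that list rose, and without RPM replicate 4, 3 did, while without the parent 18 did. Without any 1 empty vector library 1 rose and 0 fell, and as 1 culture 0 passed. Ccna2 did not pass without RPM replicate 3, nor Birc5 without RPM replicate 3 or 4.

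No member of the MYC network passed in the main fit. With all 7 libraries 1 fell when scaled by library totals, by edgeR or by DESeq2. Without RPM replicate 1, 1 rose, without the parent 2 rose and 1 fell, and without RPM replicate 4, 1 fell. Of 13 genes 12 were measured (Myc is not among the shared genes), and the 0 called stand beside 24.9% of all genes. Mycn was at 4.63, 24.3, 9.296 and 6.11 CPM in the lines and 18.4, 19.9 and 21.5 CPM with empty vector, so the empty vector libraries lay near the parent. Mycl was at 322, 6.57, 2.86 and 3.12 CPM and 13.9, 13.4 and 9.62 CPM, with RPM replicate 1 far above the rest. The repressor genes Mnt, Mxi1, Mxd1, Mxd3 and Mxd4 averaged 113, 164, 26.5, 57.3 and 145 CPM in the lines and 88.8, 180.0, 27.8, 86.5 and 130.3 CPM with empty vector. Mga, which heads a repressive complex with MAX, averaged 315 and 347 CPM. Mlx averaged 61.2 CPM in the lines and 63.6 CPM with empty vector, Mlxip, a glucose-sensing partner of it, 73.6 and 83.9 CPM, and Mlxipl, another, 44.02 and 21.9 CPM. Of the 12, Mlxipl came nearest to the threshold (adjusted p = 0.054). Of 23 classical MYC targets 4 rose and 1 fell, and of 40 ribosome biogenesis genes 6 rose and 4 fell, beside 11.1% and 13.8% of all genes. Without any 1 empty vector library 0 or 1 of the MYC targets rose and 1 fell, and no ribosome biogenesis gene passed; without RPM replicate 4, 3 of the latter rose and 1 fell. Odc1, the first enzyme of polyamine synthesis, rose from 63.2, 146, 114 and 120.2 CPM to 242, 235 and 232 CPM, and Srm, spermidine synthase, from 116, 120.3, 118 and 111 CPM to 173, 156 and 172 CPM. Nop58, a nucleolar protein, rose by 0.42 on the log2 scale. Cad, of pyrimidine synthesis, fell from 237, 249.7, 319 and 369.6 CPM to 131, 129 and 131 CPM.

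Of 9 measured germline genes 3 rose and 1 fell, beside 11.1% and 13.8% of all genes. With any 1 empty vector library left out 1 rose and 0 fell, and without the parent 3 rose and 3 fell. Tdrd1, of the piRNA pathway, rose from 47.7, 77.6, 36.4 and 45.9 CPM to 121, 120.1 and 126 CPM. Taf4b, a TFIID subunit of germ cells, and Stag3, a meiotic cohesin, rose by log2 differences of 1.10 and 0.64. The germ cell RNA-binding gene Rbm46 fell from 48.7, 16.7, 21.1 and 20.6 CPM to 7.43, 7.78 and 6.42 CPM. Of 20 imprinted genes 3 rose and 2 fell, together close to the 24.9% of all genes called. Without RPM replicate 1, 4 rose and 8 fell, and without the parent 3 rose and 4 fell. Plagl1, a zinc finger factor, rose from 26.9, 58.8, 25.7 and 25.3 CPM to 173, 168 and 172 CPM and Zim1 from 1.28, 3.35, 1.43 and 2.74 CPM to 28.3, 27.9 and 34.5 CPM. Zdbf2 was at 48.2, 54.4, 578 and 647 CPM in the lines and had 5 reads with empty vector (log2 difference -7.18, adjusted p = 0.00476). Nnat, encoding neuronatin, fell from 235, 286, 1010 and 2210 CPM to 7.86, 8.202 and 6.42 CPM (log2 difference -6.21). RPM replicates 3 and 4 held more of both than RPM replicates 1 and 2.

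Of 22 measured interferon-stimulated genes 7 fell and 1 rose, against 13.8% and 11.1% of all genes, and 14 did not pass. The median log2 difference was -0.42. Most of these genes are induced by type I interferon. Dtx3l fell from 35.6, 30.1, 34.8 and 40.4 CPM to 21, 19.9 and 18.2 CPM and Ifit2 from 72.2, 51.7, 49.3 and 54.6 CPM to 36.9, 34.4 and 34.98 CPM. Dhx58, a regulator of RNA sensors, fell from 3.73, 3.47, 5.01 and 9.601 CPM to 0.143, 1.55 and 0.917 CPM. Rtp4 had 1 read in the 3 empty vector libraries, against 3.85, 1.12, 4.29 and 3.49 CPM in the lines. Without RPM replicate 3 or 4, 4 members fell, and without any 1 empty vector library 0 did.

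Of 11 feedback genes of MAPK signalling 3 rose and 1 fell, beside 11.1% and 13.8% of all genes. Etv4, Spry1 and Spred1 rose (log2 differences 3.56, 1.77 and 1.46), and the phosphatase gene Dusp5 fell by 2.22. Etv4 did not pass without RPM replicate 3 or 4, Spred1 not without RPM replicate 3, and Spry1 not without RPM replicate 4. As 1 culture, and without any 1 empty vector library, 0 members rose. Without RPM replicate 1, 4 rose and 2 fell. Neat1 and Malat1, nuclear noncoding RNAs, rose by log2 differences of 1.36 and 0.65, and Miat fell by 3.70. The counts of the other lists stand beside the same 11.1% risen and 13.8% fallen. They were oxidative phosphorylation (4 of 30 rose and 0 fell), cholesterol synthesis (0 and 3 of 23), lysosome (1 and 0 of 26) and heat shock (1 and 3 of 10). Next came p53 targets (2 and 1 of 15), MHC class I (0 and 1 of 12) and NF-kB targets (0 and 1 of 8). The last were immediate early genes (1 and 1 of 17), YAP targets (1 and 0 of 6) and replication-dependent histones (2 and 0 of 11). Without RPM replicate 1 the lysosome counts were 1 and 5 and the MHC class I counts 0 and 3. Without the parent the cholesterol synthesis counts were 0 and 7. None of the Y-linked genes or Xist passed (0 of 5), though 1 rose without RPM replicate 3.

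Some called genes set the parent apart from the other lines before any vector was used. Among called genes within 1.5-fold of the parent, those with the largest rise were Ahnak, Igfbp3, Bmp4, Stc2 and Pcdh17. Igfbp3, another binder of insulin-like growth factors, was at 23.8, 614, 30.1 and 31.2 CPM in the lines, where RPM replicate 2 is the parent, and at 798, 877 and 829.7 CPM with empty vector (log2 difference 3.74, and 0.44 from the parent). Ahnak, a large scaffold protein, was at 16.6, 314, 6.91 and 7.36 CPM and 402, 412 and 466 CPM. In Bmp4, Stc2 and Pcdh17 the parent was likewise the highest line, and the log2 differences were 2.91, 2.90 and 2.85. Those with the largest fall were Cldn6, Plekhb1, Kcnk16, Smoc1 and Scn2b. Cldn6, a claudin, was at 27.6, 0.496, 97.1 and 65.6 CPM in the lines and 0.143, 0 and 0.153 CPM with empty vector, so the parent was already near 0. Plekhb1, Smoc1 and Scn2b were likewise under 1 CPM in the parent, and Kcnk16, a potassium channel, was at 3.72 CPM there. None of the 10 passed without RPM replicate 1, 3 or 4.

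Over all genes, 218 were private to the parent, at least 4-fold above (80) or below (138) every other line with 5 CPM or more in the higher one. The empty vector libraries stood on the parent's side at 188 of them (86.2%), 59 of the higher and 129 of the lower, and the addback libraries at 137. Gpr50, an orphan receptor related to melatonin receptors, was the clearest of the higher genes, at 0.771, 353, 0.119 and 0.374 CPM in the lines and 669.8, 666 and 636 CPM with empty vector, although its call, too, was lost without RPM replicate 1, 3 or 4. Lrp2, the endocytic receptor megalin, was kept at 256, 258 and 286 CPM against 380.4 CPM in the parent. Sftpc, which encodes surfactant protein C, was not kept: the parent held 913 CPM, the empty vector libraries 35.3, 38.5 and 30.6 CPM and the addback libraries 55.2 ± 17.2 CPM. Krt8 was private on the low side, with 26.7 CPM in the parent and 19.1, 14.6 and 17.4 CPM with empty vector.

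Where the 2 transduced cultures differed most, the untransduced parent usually lay between them. Of 407 genes at least 4-fold higher in CPM with addback than with empty vector, at 10 CPM or more with addback, the parent lay between the 2 at 324 (79.6%), at a median of 0.59 of the distance in CPM from empty vector to addback. Of 140 genes at least 4-fold higher with empty vector it lay between at 111 (79.3%), at a median of 0.823 of the distance. With another line in the parent's place 30.7 to 48.6% lay between. At the 3365 called genes, addback libraries all lay inside the range of the lines at 1151 (34.2%, against 41.5% of all genes) and all beyond it on the side of empty vector at 781 (23.2%). The genes were chosen for the difference between the 2 cultures, so these shares are descriptions, made after the data had been seen.

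Expression also shifted by chromosome. Against the parent, the median log2 difference of genes at a mean of 5 CPM or more was 0.264 on chromosome 4 (733 genes), -0.311 on chromosome 15 (453), -0.276 on chromosome 3 (512) and -0.252 on chromosome 16 (351). The 3 libraries gave nearly the same values, for chromosome 4 from 0.259 to 0.266. The other lines differed from the parent by -0.0154 to 0.14 on chromosome 4 and by 0.0618 to 0.086 on chromosome 15, and the addback libraries by 0.0133 and -0.0249. Shifts of this size also stood between untransduced lines, on other chromosomes. The other lines differed from the parent by -0.493 to -0.193 on chromosome 12. RPM replicate 3 differed from it by -0.362 on chromosome 13 and RPM replicate 1 by 0.278 on chromosome 19. On chromosome X (382 genes) empty vector and addback were both raised, by 0.457 and 0.419. DNA copy number was not measured. Of the 44 genes near 0 with empty vector, 4 lie on chromosome 15, 2 on chromosome 4, 1 on chromosome 16 and 0 on chromosome 3. With genes split by length into 4 equal groups, 20.2% of the shortest and 29.6% of the longest were called, and the median log2 differences were 0.0233 and 0.0175.

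**Figure D5:**
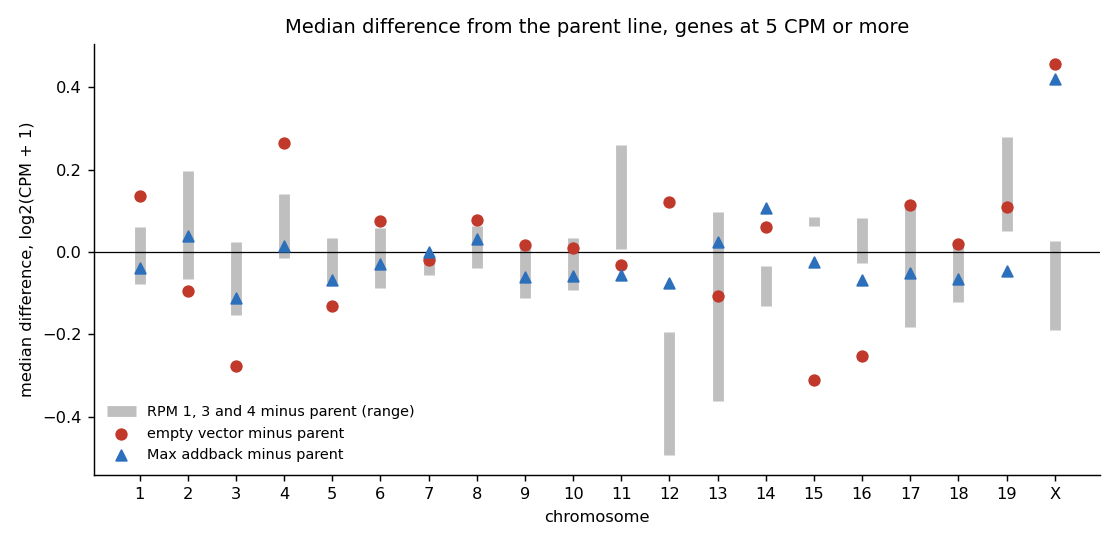
Median log2(CPM + 1) difference from the parent line by chromosome for genes at a mean of 5 CPM or more: empty vector (red, mean of 3 libraries), Max addback (blue) and the range of RPM replicates 1, 3 and 4 (grey bars). Empty vector stands at 0.264 on chromosome 4 and -0.311 on chromosome 15, where addback stands at 0.0133 and -0.0249, and both stand near 0.4 on chromosome X. The grey bar reaches -0.493 on chromosome 12.

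Genes listed in 1 table only could not be tested, since a missing row does not give a level. The line table alone holds 832 genes and the addback table alone 528. Of the latter, the highest in empty vector libraries were Fabp4, a fatty acid binding protein, at 434, 607 and 509 CPM, Th, tyrosine hydroxylase of catecholamine synthesis, at 212, 198 and 205 CPM, and Cd109, a surface glycoprotein, at 185, 167 and 182 CPM. With addback Fabp4 stood at 29.8 to 54.4 CPM and Cd109 at 1.03 to 2.16 CPM. Of the former, Selenop, Wfdc2 and Scara3 had the highest means in the 4 lines, 97.9, 97.0 and 43.1 deposited CPM, and the parent held 0.873, 0.374 and 1.25 CPM of them.

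Markers of other cell types were few. Of 9 follicular thyrocyte markers 1 is listed in both tables, Slc5a5, at 0.571, 1.27 and 1.53 CPM with empty vector; Tg is not among the shared genes. Of 10 immune markers 1 is listed (Cd68, not called), of 7 endothelial markers 2 (Egfl7, which fell, and Tek, which rose, both under 12 CPM) and of 9 fibroblast markers 4. The summed fibroblast level was 24.8 to 190.2 CPM in the lines and 33.8 to 44.1 CPM with empty vector, the summed endothelial level 5.66 to 11.4 and 4.28 to 5.00 CPM. Col1a1 rose and Pdgfrb fell, both at levels under 20 CPM in every library. Col1a1 did not pass without RPM replicate 3, Egfl7 not without RPM replicate 4, and Tek not without either. The defining immune gene Ptprc and the defining endothelial gene Pecam1 are not among the shared genes.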

How the data were processed

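RNA-seq values of cultured mouse thyroid tumour cells were used as the authors deposited them, in 2 tables: 1 with 4 Rb/p53 mutant and 4 Rb/p53/Max mutant lines, the other with 3 empty vector and 3 Max addback libraries. The submitters' processing notes name bcl2fastq 1.8.4, TopHat2 2.1.0, HTSeq 0.6.1, edgeR and the build mm10. The sources used here do not give their roles, the annotation release, strand settings or the rule by which genes were listed. Per the file headers, the values are TMM-normalised CPM, treated here as a normalised signal, beside columns of RPKM, of log2 fold changes, of p-values and of other test scores from the authors' own comparisons; none of these other columns was used for a result. The 2 deposited tables were normalised apart. Deposited CPM divided by the worth of 1 read gave whole numbers at 100% of genes in each library (tolerance 0.01 read), so reads could be recovered, and gene lengths were identical in both tables.

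Reads of the 13528 shared genes were rescaled together by TMM over all 14 libraries (edgeR 4.0.16; factors 0.973 to 1.045) and written as CPM. The 3 empty vector libraries were compared with the 4 RPM lines on log2(CPM + 1) by limma-trend (limma 3.58.1, R 4.3.3) over all shared genes, with Benjamini-Hochberg adjustment and a threshold of 0.05. A log2 difference on this scale understates the change of low genes. limma was fixed as the main test because the tables hold normalised values. Count tests on the recovered reads (edgeR quasi-likelihood, DESeq2 1.42.0, voom), other scalings, pseudocounts of 0.5 and 5, a filter at a mean of 1 CPM, the 3 libraries as 1 culture, a replicate block and each library left out were alternatives. The fit was tested on simulated data with 200 changed genes. Single values were compared by exact permutation.

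Members, gene lists and tests were chosen with earlier results of these data known, and no list is independent evidence of its direction. Genes were named by this rule: the 10 largest differences each way among called genes with groups that do not overlap, at least 5 CPM and at least 2-fold from the parent, the 5 largest each way within 1.5-fold of the parent, the 4 highest each way private to the parent, up to 4 members of each list with the smallest p, the engineered genes, the MYC network, Y-linked genes and Xist, and the 3 highest genes listed in each table alone. Further members of the neuroendocrine, stress response and epithelial lists and the genes near 0 with empty vector were named after their values were seen. Promoter windows come from a RefSeq table (GRCm38.p6), matched by symbol.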

Additional observations from a re-analysis of the deposited data

Results flagged for a closer look

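Among the 4 RPM lines, 13 of the 124 genes examined had 1 line whose gap to the nearest other line exceeded Dixon's 95% critical share of the whole range (chance flags about 1 group in 20). Some of the 124 were named because the parent stands apart from the other lines, so their share says nothing about how common this is. The parent line, RPM replicate 2, was that line in 10 of the 13. It stood high for Gpr50 (352.8 CPM), Igfbp3 (614.4 CPM), Malat1 (996.5 CPM), Pcdh17 (16.86 CPM) and Plagl1 (58.77 CPM). It stood low for Atp8b1 (12.4 CPM), Galk1 (50.83 CPM), Pcsk1 (208.9 CPM), Smoc1 (0.3719 CPM) and Syt7 (171.0 CPM). In all 10 the empty vector libraries lay on the parent's side of the other lines, a side that the calls share. RPM replicate 1 stood high for Itga3 (191.9 CPM) and low for Chgb (140.9 CPM), and RPM replicate 4 stood high for Samd5 (108.4 CPM).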

How the results depend on the processing

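The count of called genes, 3365, was 3325 to 3369 under the other scalings, 3381 and 3174 with pseudocounts of 0.5 and 5, 3334 with the filter, 3335 by edgeR, 4560 by DESeq2 and 2714 by voom, which called 1445 higher and 1269 lower. It was 8 with the 3 libraries as 1 culture, where the lone sample is assumed to vary like the lines, 686 with a replicate block, and 780 to 4781 with 1 library left out: 2266 to 4781 without a line and 780 to 798 without an empty vector library. Without RPM replicates 1 and 2, chosen after the data had been seen, it was 6899. The replicate numbers do not pair the samples: deviations of same-numbered libraries correlated at 0.00204, 0.03 and 0.0126, and those of other pairs at -0.0282 to 0.018. Not every library correlated best with its own number. The count at least 2-fold from the parent, 1587, was 860 with a pseudocount of 5, and the genes private to the parent and kept with empty vector, 188, were 54 at 8-fold, where fewer genes qualify by construction.

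Of 2491 values of named genes under alternatives, 2044 kept direction and call, 438 kept direction and lost the call, 2 passed newly and 7 reversed. Those that passed newly were Rb1 without RPM replicate 1 and Rb1 without RPM replicates 1 and 2. Lost calls were 113 as 1 culture, 56 with the block, 54 to 56 without an empty vector library, 2 to 23 without a line, 19 by voom, 12 by edgeR, 6 with a pseudocount of 5 and 4 by DESeq2. Among those lost by voom were Ccn3, Zdbf2, Snhg11 and Atp8b1, each at 7 reads or fewer with empty vector. The difference of Max, 0.01, was -0.021 with library totals, also in the permutation test, -0.0047 by DESeq2, and -0.097 to 0.086 with 1 library left out. That of Trp53, -0.09, was -0.23 to 0.039, positive without RPM replicate 3. The cause of these shifts was not tested. At these depths a level under 0.357 CPM rests on fewer than 3 reads.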
